A study of Mus musculus with 12 samples.

Results

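The genes described here encode the nuclear parts of oxidative phosphorylation (OXPHOS), the machinery of the inner mitochondrial membrane. They were chosen by gene symbol: every probe whose platform symbol began with Nduf, Uqcr, Cox followed by 4 to 8, or Atp5, or was Sdha, Sdhb, Sdhc or Sdhd. This gave 79 genes with 94 probes, of 15967 genes and 24613 probes on the array. By complex they were 30 genes of complex I, 4 of complex II, 7 of complex III, 18 of complex IV (Ndufa4 counted here) and 14 of complex V. The remaining 6 carry the prefix Ndufaf and encode assembly factors of complex I, not subunits, and they were counted apart. The cells were W9.5 mouse embryonic stem cells, sampled on days 0, 4, 8 and 15 of a stepwise differentiation aimed at pancreatic progenitors. Each day had 3 Illumina BeadChip arrays, 12 in all. All 12 arrays, day 0 included, carry the same treatment note, which names activin A, then retinoic acid, then retinoic acid with fibroblast growth factor, and the timing of each agent is not stated there. Nothing in the labels says that the replicates were separate cultures, so the p-values measure only the spread between these arrays.

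Complexes I and II take electrons from NADH and succinate, complex III passes them on through cytochrome c to complex IV, and complex IV hands them to oxygen. The proton gradient built by complexes I, III and IV drives complex V, the ATP synthase. Embryonic stem cells are known to use glycolysis. Nuclear factors such as NRF1, GABP and the coactivators of the PGC-1 family are known to act on many OXPHOS genes. The subunits encoded in mitochondrial DNA are not among these 79 genes.

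OXPHOS transcripts were detected on every day. The values are log2 intensities from the authors' table, which compare 1 probe between arrays but not 1 probe with another, and a probe was taken as detected at a detection p-value under 0.05. A gene entered the tests if a probe was detected on at least 3 of the 12 arrays, and 72 of the 79 genes did, by their brightest detected probe. Of these 72 genes, 69 were detected on all 12 arrays. Genes tested but not detected throughout were Cox4i2, a complex IV isoform of lung (3 arrays), Cox7b2 (9 arrays) and Cox8c, an isoform of testis (4 arrays). Ndufs1, Sdha, Uqcrfs1, Uqcrq, Cox8b and Ndufaf6 were detected on no array, and Cox6a2, the muscle isoform of Cox6a, on 1 array of day 15. Ndufs1, Sdha and Uqcrfs1 encode a core subunit of complex I, the flavoprotein of succinate dehydrogenase and the Rieske iron-sulfur protein, so that for these central subunits the probes gave no level. A level was read from a single probe for 65 genes and from a choice of several for 14.

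The arrays held a few features that touch the results below. On each of the 4 days the replicate 1 array had the highest median level of the OXPHOS genes and the fewest detected probes, between 11253 and 12283, and the part of this in the results was not tested. The 7 pluripotency markers were detected on all arrays. Their mean level lay between 11.47 and 11.70 on the day 0 arrays and between 10.97 and 11.13 on those of day 4, and it was 8.57 to 8.77 at day 8 and 9.48 to 9.61 at day 15. On day 15, 6 of the 7 were lower than on day 0, and Klf4 was higher (11.78 on day 15, against 11.45 on day 0). Set against day 8, 4 of the 7 were higher on day 15, such as Esrrb (9.79 on day 15, against 7.29 on day 8). Of 5 tested endoderm markers 4 rose between day 4 and day 8, with Gata4 at a mean of 10.82 on day 8, against 8.75 on day 4. Of the markers of the pancreatic progenitors named in the labels, Pdx1 was detected on 1 array, of day 8, and Ptf1a and Nkx6-1 on none. Sox9, which other cell types also express, was detected on all 12 arrays, with a mean of 8.73 on day 15, 8.63 on day 8 and 6.98 on day 4. Cell division genes (Top2a, Cdk1, Pcna, Mcm5) averaged 10.07 to 10.23 on day 15, against 11.27 to 11.57 on day 0. RNA came from whole cultures, so fewer cells of one kind and less RNA per cell cannot be told apart in any value below.

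Because the genes moved in part together, their promoters were searched for the letters of 4 motifs of factors known to act on OXPHOS genes. The motifs were CGCATGCG for NRF1, CCGGAAG for ETS factors such as GABP, ATGGCGGC for YY1 and TCAAGGTCA for estrogen-related receptors (ERR), each on both strands. RefSeq (mouse build GRCm38.p6) gave a window of 300 bases around the start for 64 of the 79 genes. At least 1 of the 4 motifs was present in 26 of the 64 genes (40.6%), against 13.9% of all 27025 genes with a window. The NRF1 letters were in 9 (14.1%, against 2.07% of all genes), the ETS letters in 15 (23.4%, against 9.93%), the YY1 letters in 5 (7.81%, against 2.6%) and the ERR letters in 2 (3.12%, against 0.466%). A longer NRF1 form, with 1 more G before and 1 more C after these letters, was searched first and was in 6 (9.38%, against 1.07%), and the shorter form was taken up after that result was known. All 5 genes with the YY1 letters belonged to complex I, which had 1 NRF1 match among its 27 genes with a window. The windows of the 64 genes had a median GC content of 58.67%, against 52.67% over all genes. Their median ratio of observed to expected CG pairs was 0.807, against 0.384 over all genes. A motif rich in G and C is met more often in such windows, and the NRF1, ETS and YY1 letters hold CG pairs. The part of this composition in the motif shares was not tested. Of the 31 genes lower on day 15 than on day 0, 45.2% held a motif, as did 1 of the 4 higher genes and 42.3% of the 26 tested genes with no call. The ETS letters were in 16.1% of the lower genes and 34.6% of those with no call, and the YY1 letters in 12.9% and 3.85%. These differences were not tested. Windows are printed below for the gene with the deepest fall (Cox7a1, with no match), for the most lowered genes of complexes III and I (Uqcrc1 and Ndufs8), for an assembly factor that had fallen by day 4 (Ndufaf4) and for the complex IV gene that was higher on day 15 (Cox6a1). Capitals mark the matched letters: NRF1 in Uqcrc1 and Ndufaf4, ETS in Ndufs8, and NRF1 followed by ETS in Cox6a1.
Cox7a1, chr7:30183921-30184220, plus strand: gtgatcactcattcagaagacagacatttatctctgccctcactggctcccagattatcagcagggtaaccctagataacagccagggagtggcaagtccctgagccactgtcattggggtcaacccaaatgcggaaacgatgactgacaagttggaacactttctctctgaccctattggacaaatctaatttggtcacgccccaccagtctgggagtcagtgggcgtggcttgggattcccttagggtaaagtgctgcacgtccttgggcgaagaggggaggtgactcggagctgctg
Uqcrc1, chr9:108936398-108936697, plus strand: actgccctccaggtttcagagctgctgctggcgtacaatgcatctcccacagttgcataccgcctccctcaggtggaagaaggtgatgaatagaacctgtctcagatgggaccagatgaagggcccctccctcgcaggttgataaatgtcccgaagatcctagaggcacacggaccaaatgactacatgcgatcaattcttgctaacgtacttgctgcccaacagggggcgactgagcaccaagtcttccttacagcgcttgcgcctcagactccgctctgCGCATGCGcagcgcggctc
Ndufs8, chr19:3912725-3913024, minus strand: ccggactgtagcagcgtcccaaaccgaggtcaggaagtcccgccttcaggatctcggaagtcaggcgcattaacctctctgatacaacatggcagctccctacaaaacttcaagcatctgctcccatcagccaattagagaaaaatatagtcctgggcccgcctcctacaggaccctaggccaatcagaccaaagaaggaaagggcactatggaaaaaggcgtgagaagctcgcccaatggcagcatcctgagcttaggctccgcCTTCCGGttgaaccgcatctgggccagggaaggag
Ndufaf4, chr4:24897833-24898132, plus strand: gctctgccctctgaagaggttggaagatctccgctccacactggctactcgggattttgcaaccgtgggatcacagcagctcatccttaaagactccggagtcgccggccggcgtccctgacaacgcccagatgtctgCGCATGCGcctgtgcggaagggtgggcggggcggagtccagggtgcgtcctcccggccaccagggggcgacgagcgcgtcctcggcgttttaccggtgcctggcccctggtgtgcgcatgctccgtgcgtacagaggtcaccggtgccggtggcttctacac
Cox6a1, chr5:115348909-115349208, minus strand: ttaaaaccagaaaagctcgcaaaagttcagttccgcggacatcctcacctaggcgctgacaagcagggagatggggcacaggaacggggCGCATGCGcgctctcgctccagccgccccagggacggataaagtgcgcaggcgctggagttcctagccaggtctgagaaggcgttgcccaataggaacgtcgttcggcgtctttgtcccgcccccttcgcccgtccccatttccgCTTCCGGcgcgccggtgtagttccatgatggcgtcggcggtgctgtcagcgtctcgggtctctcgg

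Over the whole course, in the authors' scale, the called OXPHOS genes were mostly highest on day 0 or 4 and mostly lowest on day 15. The changes were small beside those of other genes. Over the 4 days, 42 of 72 genes (58.3%) changed by limma's moderated F-test at an adjusted p under 0.05, where the background over all tested genes was 75.2%. Called genes with their highest mean on day 0 were 20 of the 72 (27.8%), which is near the background of 26.4%. Those highest on day 4 were 16 (22.2%, background 12.8%). Genes highest on day 8 were 4 (5.56%, background 14.5%) and on day 15 were 2 (2.78%, background 21.5%). The lowest mean was on day 15 in 26 of the 72 (36.1%), where the background over all tested genes was 24%. The range of the 4 day means had a median of 0.43 over the 72 genes, against 0.65 over all tested genes. Complex I had 21 of 29 genes called, complex II 2 of 3, complex III 3 of 5, complex IV 8 of 16, complex V 5 of 14 and the assembly factors 3 of 5.

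The complexes ran a like course. After subtracting every gene's mean over the 12 arrays, the median of the 29 complex I genes averaged 0.11, 0.12, -0.05 and -0.16 on days 0, 4, 8 and 15. Complex II gave 0.15, 0.21, -0.02 and -0.20, and complex III gave 0.14, 0.10, -0.10 and -0.14. For complex IV the averages were 0.11, 0.11, -0.01 and -0.19, and for complex V 0.08, 0.08, -0.01 and -0.18. The SD over the 3 arrays of a day lay between 0.01 and 0.17. In each of the 5 complexes all 3 day 15 arrays had a lower median than all 3 day 0 arrays. These values are in the authors' scale. With median scaling the median log2 difference of day 4 against day 0 was below 0 in all 5 complexes (-0.29 to -0.06). Differences between the complexes were not tested.

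**Figure D1:**
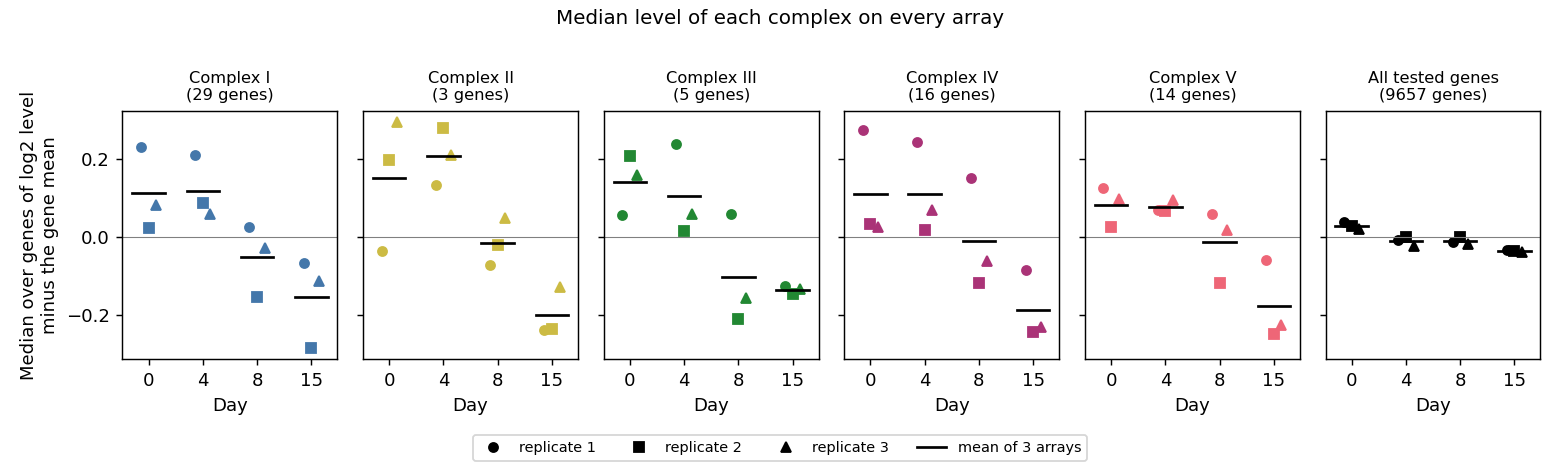
Median level of the genes of each complex on each of the 12 arrays (vertical axis, log2 level minus each gene's mean over 12 arrays; horizontal axis, day; point shapes, replicates; bars, mean of 3 arrays), with all 9657 tested genes at the right. In all 5 complexes the 3 day 15 arrays lie below the 3 day 0 arrays, while the medians of all tested genes lie between -0.04 and 0.04.

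Day 15 set against day 0 covers the whole differentiation, and here the median difference was below 0 in all 5 complexes. Of the 72 genes, 35 were lower (48.6%) and 5 were higher, at an adjusted p under 0.05 from limma. The background over all tested genes was 35.6% lower and 31.8% higher. The median log2 difference was -0.31 for OXPHOS genes, against -0.08 for all tested genes. Their probes were brighter, with a median level of 10.89 for OXPHOS genes, against 7.90 for all tested genes. The part of brightness in these shares was not tested. Of the 72 genes, 35 had all 3 day 15 arrays below all 3 day 0 arrays and 4 had all above, against a background of 37.2% and 32% of all tested genes. The falls were shallow: 12 of the 40 called genes changed by at least 1.5-fold, and Cox7a1 alone by at least 2-fold. When the scanner intensities were scaled by each array's median instead, 48 genes were lower and 1 was higher. The 35 genes lower in the authors' scale were among the 48. Of all tested genes 64.9% were called in either direction with median scaling, against 67.4% in the authors' scale. With the replicate number as a block, which pairs the arrays of these 2 days, 45 genes were lower and 7 higher. The share of all tested genes called with the block was not worked out, so these 2 counts have no background. All 40 calls were kept, and the added falls were Ndufs5, Sdhd, Uqcrc2, Uqcr11, Cox8a, Cox5b, Atp5b, Atp5mpl, Atp5e and Atp5pb (adjusted p 0.0013 to 0.049). The added rises were Ndufv3 (0.31 on the log2 scale, adjusted p = 0.014) and Ndufs4 (0.22, adjusted p = 0.042). Their other detected probes did not show these rises, with log2 differences of -0.04 for Ndufv3 and of 0.06 and -0.001 for Ndufs4.

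In complex I the measured core subunits were lower, while the accessory shell was split. The 4 tested core subunits fell, and of 25 accessory subunits 13 fell and 4 rose. Of all 29 tested complex I genes 58.6% fell and 13.8% rose, against a background of 35.6% and 31.8%. Ndufs8, a core iron-sulfur subunit, had log2 levels of 10.56, 10.21 and 10.14 on day 15, against 11.26, 11.07 and 11.06 on day 0. Every day 15 array was below every day 0 array, and the fall was 1.77-fold (-0.83 ± 0.13, log2 difference ± SE, adjusted p = 2.8e-05). Ndufv1, the flavin-binding subunit that accepts electrons from NADH, stood at 11.74, 11.43 and 11.76 on day 15, against 12.37, 12.01 and 12.19 on day 0. Its groups did not overlap either (-0.54 ± 0.12, adjusted p = 0.00077). Ndufs7 (-0.54) and Ndufs3 (-0.42), the other measured core subunits, fell with adjusted p-values of 0.0033 and 0.0037.

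Of the accessory subunits that fell, Ndufa8 changed most, by 1.51-fold (9.36 ± 0.22 on day 15, against 9.95 ± 0.13 on day 0, SD, n = 3 each). The others were Ndufb2, Ndufa5, Ndufb3, Ndufb4, Ndufb5, Ndufb9, Ndufa7, Ndufb8, Ndufa9, Ndufa10, Ndufa12 and Ndufc1, with log2 differences between -0.55 and -0.31. Arrays of the 2 days overlapped for Ndufb4 and Ndufa10 and for none of the other 11 of these 13 genes. The rises were in Ndufa13 (also known as GRIM-19), Ndufa6, Ndufa2 and Ndufa1. Ndufa13 had 13.44, 13.11 and 13.35 on day 15, against 12.99, 12.62 and 12.72 on day 0, with no overlap (0.52 ± 0.12, adjusted p = 0.00087). Ndufa6, which lies at the base of the peripheral arm, had 10.53, 10.44 and 10.55 on day 15, against 9.91, 9.95 and 10.14 on day 0 (0.51 ± 0.10, adjusted p = 0.00036). Ndufa2 (0.39) and Ndufa1 (0.30) also had every day 15 array above every day 0 array. With median scaling Ndufa6 kept its call, while Ndufa13, Ndufa2 and Ndufa1 kept a positive difference with adjusted p-values of 0.43, 0.48 and 0.88. For Ndufa1 the adjusted p was 0.090 without day 0 replicate 2 and 0.0998 without day 15 replicate 1, so that its call ended in both fits.

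Complexes II and III each contributed few measured genes. Of 3 tested genes of complex II 1 was lower (33.3%), and of 5 of complex III 2 were (40%), near the background of 35.6%. None was higher (background 31.8%). Sdhb, the iron-sulfur subunit of succinate dehydrogenase, had 10.25, 10.39 and 10.55 on day 15, against 10.59, 10.84 and 10.92 on day 0 (-0.39 ± 0.12, adjusted p = 0.0075). The lowest day 0 array lay just above the highest day 15 array. The membrane anchors Sdhc and Sdhd were not called, at -0.19 and -0.25, although Sdhd was with the replicate block (adjusted p = 0.046). In complex III, Uqcrc1, a large matrix-facing core protein, was the second most lowered OXPHOS gene. It had 10.56, 10.46 and 10.18 on day 15, against 11.42, 11.43 and 11.18 on day 0, with a wide gap between the groups (1.92-fold, -0.94 ± 0.12, adjusted p = 1.9e-06). Its partner Uqcrc2 was called only with the replicate block (-0.23, adjusted p = 0.038), Uqcrb, which binds ubiquinone, fell by 0.31 on the log2 scale, and Uqcrh, the hinge protein beside cytochrome c1, stayed near its day 0 level (0.06, not called).

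Complex IV held both the deepest fall and a wide spread among its subunits. Of its 16 tested genes 7 were lower (43.8%, background 35.6%) and 1 was higher (6.25%, background 31.8%). Cox7a1, the heart and skeletal muscle isoform of Cox7a, had 7.59, 7.37 and 7.32 on day 15, against 8.79, 8.63 and 8.75 on day 0. The groups lay more than 1 log2 unit apart, a 2.45-fold fall (-1.30 ± 0.13, adjusted p = 1.4e-07) that was 3.21-fold after background correction of the scanner intensities (neqc). Its widely expressed paralogue Cox7a2 had 8.53, 8.37 and 8.69 on day 15, against 9.67, 9.32 and 9.40 on day 0, also without overlap (1.90-fold, -0.93 ± 0.12). Cox7c stood at 12.35, 12.42 and 12.38 on day 15, against 12.96, 13.31 and 13.12 on day 0 (1.68-fold, -0.75 ± 0.09, adjusted p = 1.5e-06). Cox5a, which sits on the matrix side of the complex, fell 1.63-fold (-0.71 ± 0.14), Cox6b2, a testis isoform, by 0.55 and Cox7b by 0.51 on the log2 scale. Cox8c was detected on 2 arrays each of days 0 and 4 and on none of days 8 and 15. It thus entered the tests only through the days on which it was higher, so its call is no evidence of a fall. Its fold against the detection floor was 1.23, with a day 0 mean that includes an array without detection. It is counted in the 7 falls above and in the 35 over all complexes.

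In contrast, the widely expressed Cox4i1 was almost level, at 13.88, 13.80 and 13.82 on day 15, against 13.96, 13.85 and 13.88 on day 0 (-0.06, not called). Cox6a1, the widely expressed form of Cox6a, rose by 0.43 ± 0.16 (adjusted p = 0.027), with 12.32, 11.80 and 11.74 on day 15, against 11.76, 11.49 and 11.32 on day 0. Its groups overlapped, and the call was lost with median scaling (adjusted p = 0.46) and without day 15 replicate 1 (0.18), day 0 replicate 3 (0.12) or day 0 replicate 2 (0.061).

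In complex V 5 of 14 genes fell (35.7%, near the background of 35.6% of all tested genes) and none rose (background 31.8%). All 14 differences were below 0, while over all 9657 tested genes 4339 differences were above 0. Of the 3 genes for the same c-ring protein, Atp5g1 had 12.02, 11.53 and 11.70 on day 15, against 12.67, 12.23 and 12.32 on day 0 (1.57-fold, -0.65 ± 0.15, adjusted p = 0.00076). Atp5g3 fell less, by 0.32 ± 0.08, with 14.24, 14.06 and 14.09 on day 15, against 14.48, 14.43 and 14.44 on day 0. Atp5g2 was not called (-0.17). In the catalytic F1 head Atp5c1, the rotating gamma subunit, fell by 0.45 and Atp5a1, the alpha subunit, by 0.30 on the log2 scale, while Atp5b, the catalytic beta subunit, missed the threshold (-0.14) and passed it with the replicate block (adjusted p = 0.048). The assembly factors of complex I fell in 3 of 5 cases (60%, background 35.6%). Ndufaf5 fell 1.84-fold (-0.88 ± 0.14), Ndufaf4 1.67-fold (-0.74 ± 0.10) and Ndufaf1 1.55-fold (-0.63 ± 0.13). Each of the 3 had every day 15 array below every day 0 array.

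**Figure D2:**
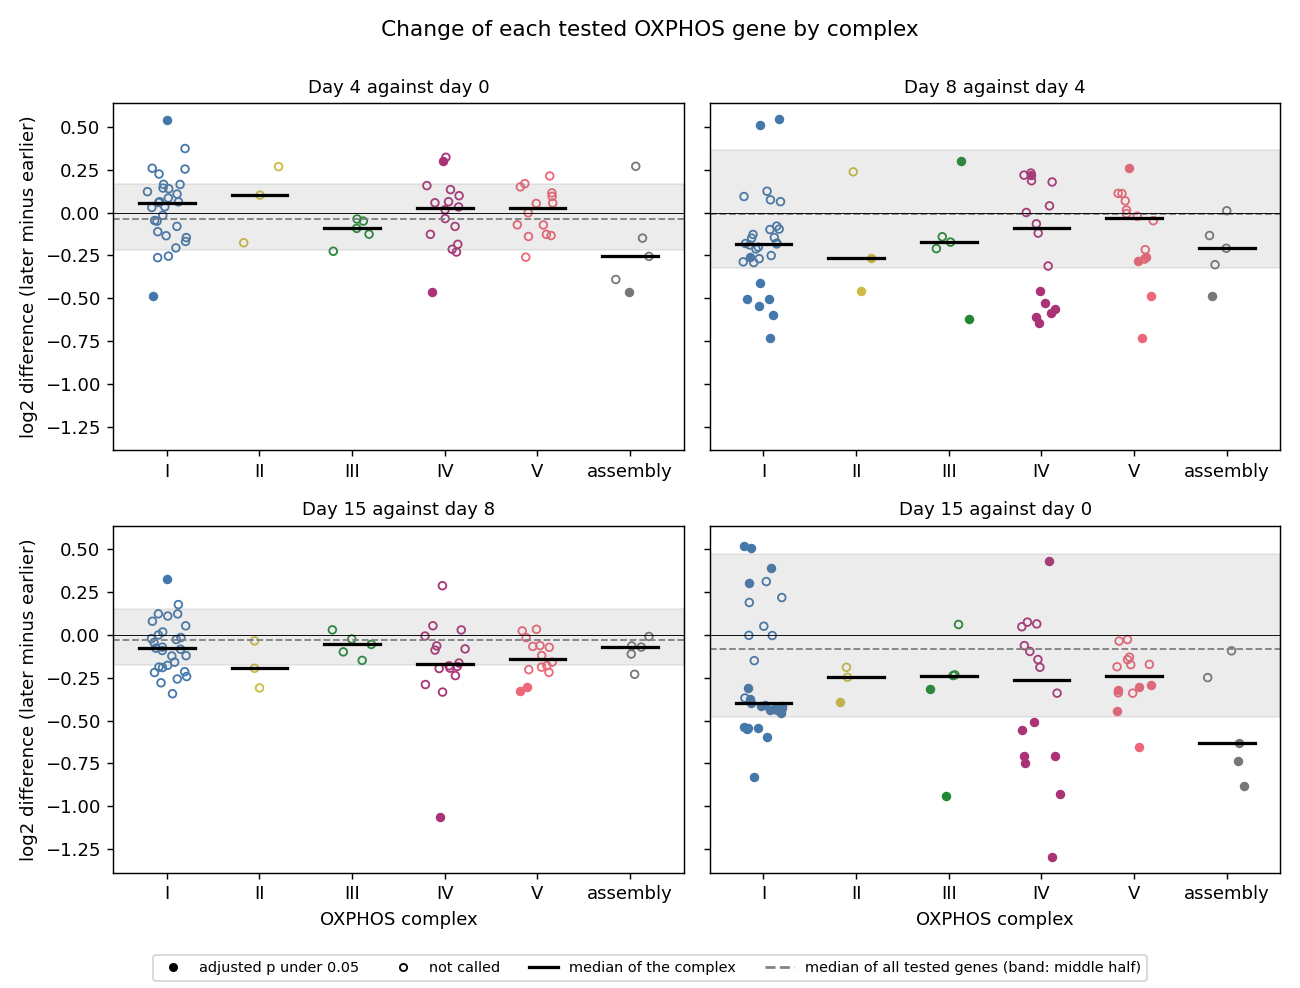
Log2 difference (later minus earlier day, vertical axis) of each of the 72 tested genes in 4 comparisons, by complex (horizontal axis). Filled points passed an adjusted p under 0.05 and open points did not, black bars are medians of a complex, and the grey line and band are the median and middle 50% of all tested genes. On day 15 against day 0 the 5 complex medians lie between -0.40 and -0.24.

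The 3 steps between successive days were also compared one by one. These comparisons share arrays with each other and with the whole course, so their counts are given side by side.

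In the first step, day 4 against day 0, OXPHOS genes barely moved: 2 rose and 3 fell. The background over all tested genes was 14.3% higher and 13.6% lower. The median difference was 0.01, against -0.04 for all tested genes, and no OXPHOS gene changed by 1.5-fold. Among the falls was Ndufs8, with 10.75, 10.63 and 10.55 on day 4, against 11.26, 11.07 and 11.06 on day 0, a clear gap (-0.49 ± 0.13, adjusted p = 0.010). Ndufaf4 had 9.60, 9.66 and 9.56 on day 4, against 9.96, 10.15 and 10.12 on day 0 (-0.47 ± 0.10, adjusted p = 0.0019). Cox7a1 had 8.60, 8.10 and 8.08 on day 4, against 8.79, 8.63 and 8.75 on day 0 (-0.46 ± 0.13, adjusted p = 0.015). Its replicate 1 array lay just under the day 0 arrays, and without day 4 replicate 2 or 3 the call was lost (adjusted p = 0.077 and 0.078).

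The rises were Ndufv3 and Cox7b2. Ndufv3, a small subunit of the NADH-binding module, had 11.77, 11.48 and 11.27 on day 4, against 11.45, 10.60 and 10.86 on day 0, and the groups overlapped (0.54 ± 0.18, adjusted p = 0.036). A dimmer second probe of Ndufv3 gave 0.07. Cox7b2 had 6.82, 6.91 and 6.70 on day 4, against 6.42, 6.57 and 6.52 on day 0 (0.30 ± 0.11, adjusted p = 0.039), close to the detection floor. The call of Ndufv3 ended without day 0 replicate 2 or 3 or day 4 replicate 1 or 2 (adjusted p 0.076 to 0.18). That of Cox7b2 ended without day 0 replicate 1 or 3, day 4 replicate 1 or 2 or day 8 replicate 3 (0.050 to 0.14). With median scaling 6 genes were lower and none higher, and the medians of complexes I, II, IV and V, which were 0.06, 0.10, 0.03 and 0.03, became -0.10, -0.06, -0.15 and -0.13.

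In the second step, day 8 against day 4, 21 of 72 genes fell (29.2%) and 5 rose (6.94%). The background over all tested genes was 26.3% lower and 28.5% higher, so that the share of falls was near it. The median difference was -0.18 for OXPHOS genes, against -0.01 for all tested genes. In complex I, Ndufv1 had 11.72, 11.47 and 11.51 on day 8, against 12.44, 12.33 and 12.13 on day 4 (1.66-fold, -0.73 ± 0.12, adjusted p = 6.2e-05). Every day 8 array was well below every day 4 array. Ndufb5, an accessory subunit of the membrane arm, fell 1.51-fold, and Ndufa7, Ndufb9, Ndufb2, Ndufa12 and Ndufa9 fell by 0.26 to 0.54 on the log2 scale. Complex II lost level in Sdhb (-0.46, 10.43 ± 0.12 on day 8, against 10.89 ± 0.12 on day 4, SD, n = 3 each) and Sdhc (-0.26, a call lost without any 1 of the day 4 or day 8 arrays, adjusted p 0.053 to 0.12). Uqcrc1 had 10.53, 10.52 and 10.45 on day 8, against 11.24, 10.93 and 11.18 on day 4 (1.54-fold, -0.62 ± 0.12).

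In complex IV, 6 of 16 genes fell (37.5%, background 26.3%). They were Cox5a (1.56-fold), Cox7a2 (1.52-fold), Cox7c (1.48-fold), Cox6b2 (-0.59 on the log2 scale), Cox7b (1.37-fold) and Cox7b2 (at least 1.38-fold, as it was detected on no array of day 8). Cox7c showed the tightest groups, at 12.35, 12.42 and 12.29 on day 8, against 12.91, 12.91 and 12.92 on day 4. Cox7a1 was not called in this step, at 8.58, 8.48 and 8.42 on day 8, against 8.60, 8.10 and 8.08 on day 4 (0.23). In complex V, Atp5g1 had 11.90, 11.56 and 11.73 on day 8, against 12.71, 12.36 and 12.31 on day 4 (1.66-fold, -0.73 ± 0.15), and Atp5a1 fell 1.40-fold, with Atp5md 1.22-fold (a call lost after neqc, adjusted p = 0.051) and Atp5k 1.20-fold lower. Atp5g2 and Atp5g3 were not called. Of the assembly factors Ndufaf5 fell, by 0.48, a call that ended without day 8 replicate 2 (adjusted p = 0.056).

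The 5 rises were Ndufa3 (1.46-fold), Ndufa13 (1.43-fold), Uqcrh (1.23-fold), Atp5j2 (1.20-fold) and Ndufa4 (1.17-fold). Ndufa13 had 13.45, 13.38 and 13.30 on day 8, against 13.06, 12.88 and 12.66 on day 4, and the lowest day 8 array was above the highest day 4 array. Ndufa3 had 10.44, 10.04 and 10.22 on day 8, against 9.96, 9.66 and 9.44 on day 4, also with no overlap. Arrays overlapped for Atp5j2 and for Ndufa4, a subunit bound to complex IV and first assigned to complex I. Both calls ended without day 4 replicate 2 or 3 or day 8 replicate 1 or 3 (adjusted p 0.086 to 0.20 for Ndufa4 and 0.063 to 0.18 for Atp5j2). That of Ndufa4 also ended without day 0 replicate 3 (0.057) or day 15 replicate 2 (0.054), and those of Ndufa4 and Uqcrh also after neqc (0.36 and 0.11). With median scaling 11 genes were lower and 4 higher, and 11 of the 21 falls and 3 of the 5 rises kept their calls. Without day 8 replicate 2, 14 genes were lower.

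Markers of other cells and states moved in the same step. The 4 tested visceral endoderm and liver markers all rose, with Ttr at a mean of 13.56 on day 8, against 9.96 on day 4, and Afp at 11.08 on day 8, against 6.20 on day 4. The 5 listed markers on the array averaged 10.36 to 10.61 on the day 8 arrays, against 7.30 to 7.34 on the day 4 arrays, and the 4 tested markers fell again between day 8 and day 15. Of 5 tested genes of the hypoxia response, Vegfa, Egln3 and Slc2a1 rose and Pdk1 fell. The 4 cell division genes fell. The part of these cells and states in the levels of OXPHOS genes was not tested.

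Day 15 against day 8, the last step, changed 4 genes: 3 fell and 1 rose. The background over all tested genes was 9.31% lower and 12.5% higher. The median difference was -0.09, against -0.03 for all tested genes. Cox7a1 had 7.59, 7.37 and 7.32 on day 15, against 8.58, 8.48 and 8.42 on day 8, a gap of more than 0.8 log2 units between the nearest arrays (2.09-fold, -1.06 ± 0.13, adjusted p = 9.7e-06). Atp5g3 fell by 0.30 ± 0.08 (adjusted p = 0.0089) and Atp5c1 by 0.33 ± 0.10 (adjusted p = 0.020). Ndufa6 rose by 0.33 ± 0.10 (adjusted p = 0.032), with 10.53, 10.44 and 10.55 on day 15, against 10.11, 10.10 and 10.33 on day 8. The call of Ndufa6 was lost without day 15 replicate 1 or 3 and without day 8 replicate 1 or 2 (adjusted p 0.085 to 0.11). That of Atp5c1 was lost without day 15 replicate 1 or 2 or day 8 replicate 1 or 3 (0.067 to 0.093) and that of Atp5g3 without day 8 replicate 3 (0.060).

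With the replicate number as a block, which pairs the arrays of these 2 days, 8 genes were lower and 2 higher on day 15 than on day 8. The share of all tested genes called with the block was not worked out. The added falls were Cox5b, Ndufa3, Cox6b2, Sdhd and Atp5b, with log2 differences between -0.34 and -0.18, and the added rise was Cox7b2 (0.29). After neqc 3 genes were lower and 2 higher. Cox7a1 belongs to heart and skeletal muscle, and markers of these tissues moved the other way in the same step. Of 10 such markers on the array 7 were tested, 5 rose (Myl3, Tnnt2, Actc1, Myl7 and Myl4) and Tnnc1 fell. Their mean level was 7.42 to 7.77 on the day 15 arrays, against 6.97 to 7.02 on the day 8 arrays, and Ckm, Myog and Myh6 were detected on no array. The part of these cells in the level of Cox7a1 was not tested.

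**Figure D3:**
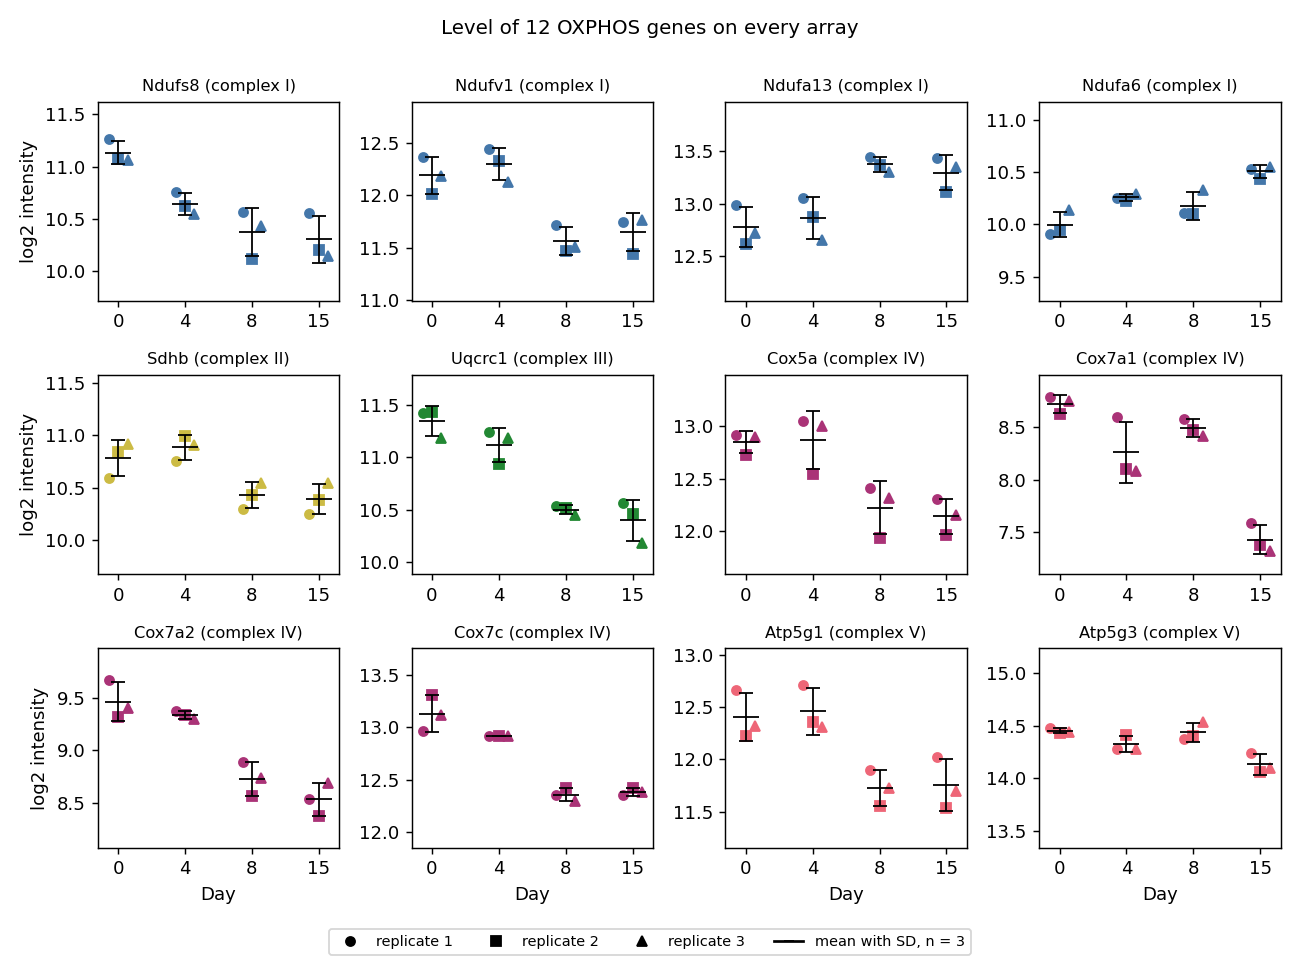
Log2 intensity of 12 OXPHOS genes (vertical axes, each spanning 1.9 log2 units) on days 0, 4, 8 and 15 (horizontal axis), with 1 point per array and the mean with SD over 3 arrays. Ndufv1, Uqcrc1, Cox7a2, Cox7c and Atp5g1 step down between day 4 and day 8, Cox7a1 steps down between day 8 and day 15, and Ndufa13 and Ndufa6 end above their day 0 arrays.

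Paralogues of 1 subunit were not all called in the same steps. Cox7a1 and Cox7a2 both ended lower. Cox7a2 fell between day 4 and day 8 (8.73 ± 0.16 on day 8, against 9.33 ± 0.04 on day 4, SD, n = 3 each). Cox7a1 was called lower between day 0 and day 4 (-0.46 on the log2 scale) and between day 8 and day 15 (-1.06). Atp5g1 had its fall between day 4 and day 8 and Atp5g3 between day 8 and day 15. Atp5g2 was called in none of the 4 comparisons without the replicate block. With the block it was lower on day 8 than on day 4 (-0.27, adjusted p = 0.015 from limma). Cox6b1 was called in none, at means of 11.44, 11.54, 11.73 and 11.49 on days 0, 4, 8 and 15, whereas Cox6b2 fell between day 4 and day 8. Cox7b fell in that step (1.37-fold), a call lost without day 4 replicate 1 (adjusted p = 0.080) or day 8 replicate 2 (0.057). Cox8a was called in none of the 4 comparisons without the replicate block, and Cox8b was not detected. Cox4i1 and Cox6c were level over the 4 days by the F-test (adjusted p = 0.34 and 0.64). Differences between paralogues were not tested, and each value is a change of 1 probe.

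**Figure D4:**
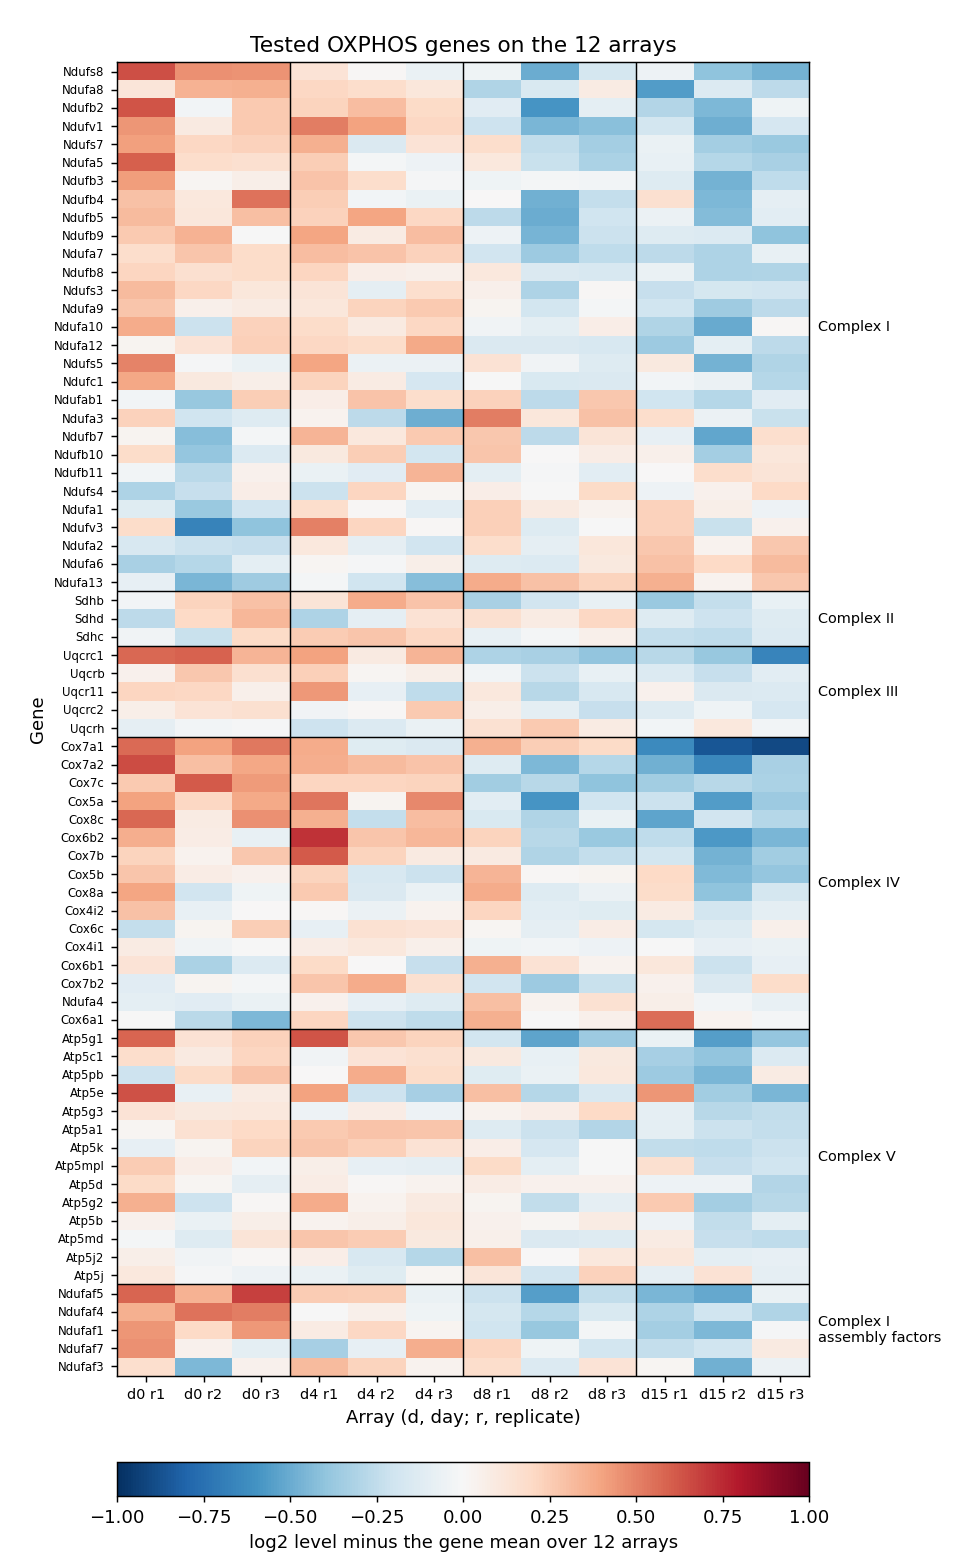
Log2 level of the 72 tested genes minus each gene's mean over the 12 arrays (colour, from -1 in blue to 1 in red), with arrays in columns by day and replicate and genes in rows by complex, ordered by the difference of day 15 and day 0. Most rows turn from red on days 0 and 4 to blue on days 8 and 15, and the lowest rows of complex I, such as Ndufa13 and Ndufa6, run the other way.

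Genes that feed or control the respiratory chain were also set beside it. Of 15 tested genes of the citric acid cycle and pyruvate dehydrogenase, 6 were lower (40%, background 35.6%) and 1 higher (6.67%, background 31.8%) on day 15 than on day 0 (median -0.29). Between day 4 and day 8, 8 fell (53.3%, background 26.3%) and none rose. Idh3a, the catalytic subunit of the NAD-linked isocitrate dehydrogenase, had a mean of 7.86 ± 0.22 on day 15, against 9.23 ± 0.09 on day 0 (SD, n = 3 each), a 2.58-fold fall. Dlat, the acetyltransferase of pyruvate dehydrogenase, fell 1.85-fold and Idh3g 1.79-fold. Idh2, the NADP-linked enzyme, rose 1.71-fold over the same days, and its rise had come by day 4 (1.82-fold). These genes had a mean level of 9.17 to 9.30 on the day 15 arrays, against 9.52 to 9.61 on the day 0 arrays.

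Regulators of mitochondrial biogenesis and genes of mitochondrial DNA upkeep were lower in 11 of 15 tested cases on day 15 than on day 0 (73.3%, background 35.6%), and none was higher (median -0.42). Ppargc1b, a coactivator of the PGC-1 family, averaged 6.36 ± 0.33 on day 15, against 7.48 ± 0.09 on day 0 (2.17-fold lower), and was detected on 2 of the 3 day 15 arrays. Tfam, which packages mitochondrial DNA, fell 1.75-fold (8.42 ± 0.23 on day 15, against 9.23 ± 0.10 on day 0), and Gabpa, the DNA-binding part of GABP, 1.60-fold. Nrf1 fell by 0.57 between day 0 and day 4 and rose by 0.30 between day 4 and day 8, and on day 15 it was 0.27 below day 0. Between day 4 and day 8, 6 of these 15 genes fell (40%, background 26.3%), among them Gabpb1 (1.62-fold), Tfam (1.60-fold) and Gabpa (1.53-fold).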

How the data were processed

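Total RNA of mouse W9.5 cells was amplified to biotinylated cRNA and hybridised to 12 Illumina arrays, per the labels' protocols. The deposited scanner table holds an intensity and a detection p-value for each probe, not normalized. The deposited value table of the authors holds log2 intensities. Within an array they keep the order of the scanner intensities, and array medians were 6.27 to 6.30. The sources used here do not give their normalization method. The values are not background-subtracted, which shrinks the fold changes of dim genes.

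The value table was the main source. Genes were named by the platform annotation, in which 20984 probes had 1 gene, 1 had several and 3628 had none. A probe was kept if its detection p was under 0.05 on at least 3 arrays, and each gene was read from its brightest kept probe. limma 3.58.1 (R 4.3.3; lmFit, then eBayes with a trend) was fitted to 9657 genes over all 12 arrays with a mean per day (8 residual degrees of freedom), and p-values were adjusted by Benjamini-Hochberg over all 9657 genes, with a threshold of 0.05. Where a gene was detected on no array of one day, its fold is a bound against the detection floor. The fit was also run on simulated data with independent noise on each array. That run does not cover correlation between arrays of equal replicate number. The number of arrays, 3 a day, limits the precision.

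Alternatives were neqc (offset 16) or median scaling of the scanner intensities, no filter, a stricter filter (detection p under 0.01), the mean of all detected probes, only the 6 arrays compared, no trend, the replicate number as a block, and leaving out each array. The replicate numbers come from the labels. Deviations from the day means correlated over 0.1 in every same-numbered pair between day 15 and day 8 (0.36 to 0.48) and between day 15 and day 0 (0.44 to 0.54), but not between day 4 and day 0 (lowest -0.09) or day 8 and day 4 (lowest 0.05). Named genes are the up to 8 largest called rises and falls of each comparison, paralogue families, core subunits, genes not detected, and up to 3 called genes per comparison of each list of related genes. The members, the lists and the motif letters were chosen with earlier results of these data known.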

Additional observations from a re-analysis of the deposited data

How the results depend on the processing

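Of the 41 named genes followed through the alternatives, none with a call changed direction. Leaving out 1 array gave 3 to 6 genes higher and 33 to 39 lower for day 15 against day 0, 0 to 2 and 1 to 4 for day 15 against day 8, 0 to 2 and 2 to 5 for day 4 against day 0, 3 to 6 and 14 to 23 for day 8 against day 4, and 38 to 44 over the 4 days. The rises of day 15 over day 0 numbered 3 without day 0 replicate 2 or day 15 replicate 1. Those of day 15 over day 8 numbered 0 without day 15 replicate 1 or 3 or day 8 replicate 1 or 2, and 2 without day 15 replicate 2, and the falls numbered 1 without day 8 replicate 3. On day 4 against day 0 the rises numbered 0 without day 4 replicate 1 or 2 and 1 without day 0 replicate 1 or 2 or day 8 replicate 3, and the falls 5 without day 0 replicate 1. On day 8 against day 4 the rises numbered 3 without day 4 replicate 2 or 3 or day 8 replicate 1 or 3. Of 80 counts under the other alternatives 65 were within 1.5 times, and the rest follow. Median scaling gave 1 gene higher on day 15 than on day 0, and 11 lower on day 8 than on day 4. On day 4 against day 0 it gave 0 higher and 6 lower (against 2 and 3). Of all tested genes it called 27.1%, 51.6%, 20.5% and 64.9% in either direction in the 3 steps and the whole course. The authors' scale gave 27.9%, 54.8%, 21.8% and 67.4%. With neqc 2 genes were higher on day 15 than on day 8, and 3 were higher on day 8 than on day 4, as also with no filter and with no trend. With only the 6 arrays compared, 0 genes were higher on day 15 than on day 8 and 1 was higher on day 4 than on day 0, as also with the mean of all probes. No share of all tested genes was worked out for the replicate block, so its counts have no background. The block gave 2 genes higher and 8 lower on day 15 than on day 8. For day 15 against day 0 it gave 7 and 45, with all 40 calls kept. It gave 7 higher and 7 lower on day 4 than on day 0, and 6 and 29 on day 8 against day 4. In these 2 steps the same-numbered pairs correlated unevenly (-0.09 to 0.49 and 0.05 to 0.40). Over all days the median correlation was 0.37 for equal numbers, and 10 of 12 arrays correlated best with their own number. For different numbers it was -0.19, which is no separate evidence, as the 3 deviations of a day sum to 0. Whether equal numbers share a culture is not stated in the labels, so pairing in these steps stays unknown. The cause of these shifts was not tested. Signal over background limits Cox4i2, Cox7b2 and Cox8c, which lie near the detection floor, and the 7 genes not tested.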

Other observations

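Assembly factors and electron carriers outside the symbol rule were mixed. Of 30 tested genes, 13 were lower (43.3%, against 35.6% of all tested genes) and 3 higher (10%, against 31.8%) on day 15 than on day 0 (median -0.23). Ecsit, a complex I assembly factor that also acts in immune signalling, was the most lowered, at 6.89 ± 0.11 on day 15, against 8.65 ± 0.18 on day 0 (SD, n = 3 each; 3.38-fold, adjusted p = 7.2e-10). Most of this fall lay between day 4 and day 8 (3.07-fold). Cyc1, the cytochrome c1 subunit of complex III that the symbol rule does not reach, fell 2.20-fold, and Acad9, which assists complex I assembly, 1.95-fold. The rises were Etfdh, which passes electrons from fatty acid oxidation to ubiquinone (1.90-fold), Coa5 (1.44-fold) and Cox20 (1.40-fold), both of complex IV assembly. Between day 4 and day 8, 8 of these genes rose (26.7%, against 28.5% of all tested genes) and 7 fell (23.3%, against 26.3%), among the rises Surf1, a complex IV assembly factor (1.49-fold). On day 4 against day 0, 2 rose and 6 fell, and on day 15 against day 8, Cox16 rose and Etfa fell.

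A list of adenine nucleotide and phosphate carriers, porins, uncouplers and mitochondrial creatine kinases was mostly lower on day 15 than on day 0 (median -0.40). Of its 8 tested genes 6 fell (75%, against 35.6% of all tested genes) and 1 rose (12.5%, against 31.8%). Vdac1, the main porin of the outer membrane, averaged 12.92 ± 0.09 on day 15, against 13.76 ± 0.07 on day 0 (1.78-fold lower). The ADP/ATP carriers moved in opposite directions. Slc25a4, the carrier of heart and muscle, rose 2.01-fold between day 4 and day 8 (1.01 ± 0.11, log2 difference ± SE), while Slc25a5, the carrier of dividing cells, fell 1.62-fold (13.12 ± 0.13 on day 8, against 13.82 ± 0.06 on day 4). Ucp1 was called lower on day 4 (adjusted p = 0.0010 from limma), but it was detected on none of the 3 day 4 arrays (6.12 ± 0.19), against all 3 day 0 arrays (6.74 ± 0.15), so that no fold is given. Ckmt1, a mitochondrial creatine kinase, was 1.70-fold higher on day 4 than on day 0 and 1.72-fold lower on day 8 than on day 4.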
